A study of Homo sapiens with 16 samples.

Results

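The genes described here are those whose response to Dox-induced Runx2 differed between the first and the second day of treatment in C4-2B/Rx2dox prostate cancer cells. For each gene the interaction was formed, which is the log2 difference between Dox and vehicle on day 2 minus the same difference on day 1, over all 16 arrays and with 1 probe per gene, the probe of the highest mean. Of 16923 genes, 2205 had an interaction that passed the test (limma, adjusted p under 0.05), which is 13% of the genes. The response grew, shrank or turned over for 2179 of these, and 26 fell in none of these kinds because no Dox effect passed on the day of the larger effect. C4-2B cells are a castration-resistant line derived from the LNCaP prostate cancer cells. The C4-2B/Rx2dox subline was made by lentiviral transduction and carries a Flag-tagged mouse Runx2 cDNA behind a Dox-responsive promoter. It makes the Dox-dependent activator protein from the Ubi-c promoter in every culture, vehicle cultures included. The 4 groups were vehicle for 24 h (day 1), Dox at 250 ng/ml for 24 h, vehicle for 48 h (day 2) and Dox at the same dose for 48 h, with 4 cultures and 4 arrays each. All groups come from this 1 transduced subline, and cells with the Dox-induced mutant Runx2 were not on these arrays.

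Runx2 is a DNA-binding transcription factor that pairs with the partner subunit CBFB. It is best known as the regulator that commits mesenchymal cells to bone formation, it can both activate and repress genes, and in many cell types it restrains proliferation. An interaction can arise in more than 1 way, since it equals the change between the days in the Dox cultures minus the change between the days in the vehicle cultures. These changes are called the Dox move and the vehicle move below, and each gene was assigned to the arrays that moved. The effect on either day, the moves and the interaction all rest on the same 16 arrays, so their values are given side by side and none is independent of the others.

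On each array 40.1% to 42.2% of probes were above background (detection p under 0.01), and replicate arrays had correlations of 0.993 to 0.996. The median raw signal of an array was 119.1 to 124.2 in vehicle day 1, 124.9 to 139.2 in Dox day 1, 108 to 111.1 in vehicle day 2 and 106.6 to 112.8 in Dox day 2, so it moved with day and, on day 1, with treatment. Of the 12 measured genes of prostate epithelium, 12 were above background on the 4 arrays of every group, whereas 6 of 8 hematopoietic, 7 to 8 of 10 stromal, 7 of 8 endothelial and 6 to 7 of 8 neuroendocrine genes were above background on no array of a group. The probe of the human RUNX2 gene read 4.48 to 5.47 on the log2 scale over the 16 arrays and was above background on 1 of them, a Dox day 1 array, and whether it reads the induced cDNA was not tested. Precision is limited by having 4 arrays in each group. Of the 2205 genes, 2054 were above background on the 4 arrays of at least 1 group and 77 on no array.

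The response to Dox grew for most of the genes. It grew upwards (growing rises) for 929 genes and downwards (growing falls) for 991, it shrank for 115 rises and 91 falls, and it turned over for 27 genes from a rise to a fall and for 26 from a fall to a rise. Over all genes, 10.7% were higher and 11.5% lower with Dox on day 1, and 16.6% were higher and 16.7% lower on day 2. Of the growing rises, 479 were already called on day 1 in the same direction and 450 were not, and the growing falls divided into 539 and 452. Of the shrinking rises 33 were still called on day 2 and 82 were not, and of the shrinking falls 19 were still called and 72 were not. The effects of the 2 days had the same sign for 758 growing rises, 822 growing falls, 62 shrinking rises and 43 shrinking falls. In the other genes of these kinds the smaller effect had the opposite sign and was not called. The median size of the interaction was 0.56 for growing rises (quartiles 0.43 and 0.78, largest 3.96, of a gene at background in the other 3 groups), 0.60 for growing falls (0.44 and 0.89, largest 2.26), 0.47 for shrinking rises (largest 1.39), 0.45 for shrinking falls (largest 1.43), 0.82 for turns from rise to fall (largest 2.88) and 0.62 for turns from fall to rise (largest 1.59), all on the log2 scale.

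**Figure D1:**
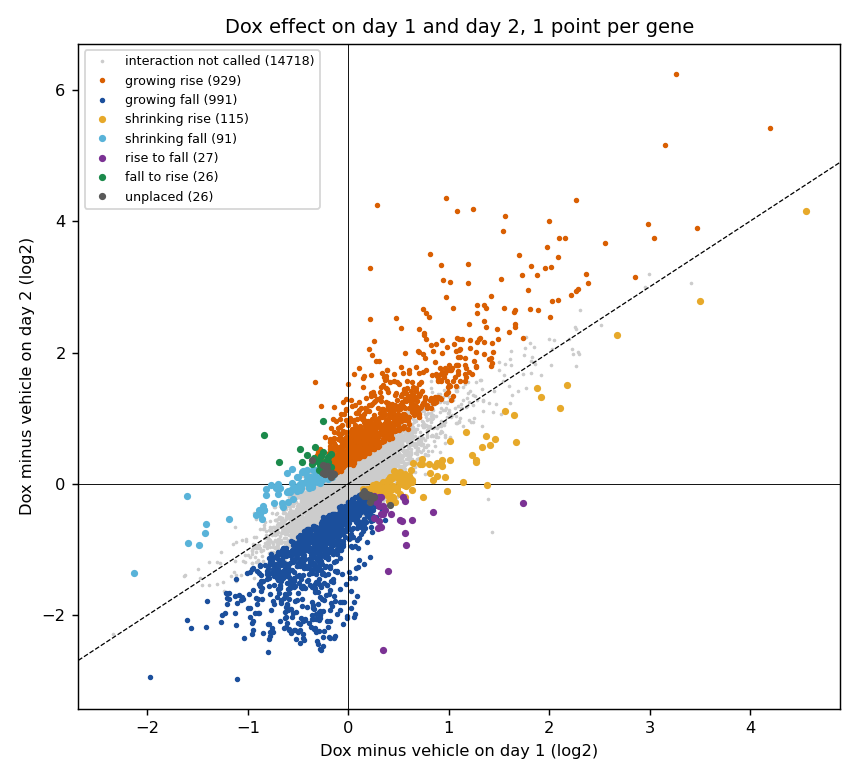
Each point is a gene, with the log2 difference between Dox and vehicle on day 1 (x axis) against that on day 2 (y axis), colored by the kind of change between the days, and the dashed line marks equal effects. The 929 growing rises lie above the line and reach 6.24 on day 2, the 991 growing falls lie below it, and the 53 turning genes lie at the upper left and lower right.

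The interaction lay above 0 for 1060 genes (6.26% of all) and below 0 for 1145 (6.77%). This division depends on the scaling of the arrays: with the array medians set equal in place of quantile normalization, 625 of 1834 calls lay above 0, and the median interaction over all genes went from 0.0012 to -0.0051. The size of the interaction was at least 1 on the log2 scale for 340 genes and at least 2 for 35. At the edge of the threshold stood STAP2 with an interaction of 0.29 just inside it (adjusted p = 0.04988) and ASTE1 with 0.33 just outside it (adjusted p = 0.05002).

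The move lay in the Dox arrays for 1287 of the 2205 genes (58.4%), in the vehicle arrays for 218 (9.89%) and in opposite directions in both for 115 (5.22%), and it could not be placed for 585 (26.5%). Between the days, 11.7% of all genes were higher and 11% lower in the Dox arrays, and 6.33% were higher and 6.08% lower in the vehicle arrays. A move was placed in the Dox arrays where the Dox move was called in the direction of the interaction and was the larger, and in the vehicle arrays where the vehicle move was called against the direction of the interaction and was the larger. Where the moves were opposite, their sizes also had to differ by a test of their sum. Of the unplaced genes 89 had no called move, 335 had a called Dox move alone and 161 a called vehicle move alone, and for these the sizes of the moves could not be told apart. Of the 1287 genes that moved in the Dox arrays, the vehicle move was not called for 1023. It was called in the direction of the Dox move for 231 and in the opposite direction for 33.

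The growing effects lay mostly in the Dox arrays. That was the case for 607 growing rises (65.3%) and 625 growing falls (63.1%), against 47 (5.06%) and 74 (7.47%) in the vehicle arrays. Shrinking effects were divided otherwise, with 31 of 115 shrinking rises (27%) and 41 of 91 shrinking falls (45.1%) in the vehicle arrays and 30 and 11 in the Dox arrays. Turning effects lay in the vehicle arrays for 10 of 27 genes that turned from rise to fall and for 8 of 26 that turned from fall to rise, and in the Dox arrays for 6 and 8. The kinds are defined from the same effects as the moves, so these shares describe the genes and were not tested. Among the 340 interactions of at least 1, 292 lay in the Dox arrays and 20 in the vehicle arrays, and among the 35 of at least 2 the counts were 33 and 1, the vehicle gene being DDIT4.

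**Figure D2:**
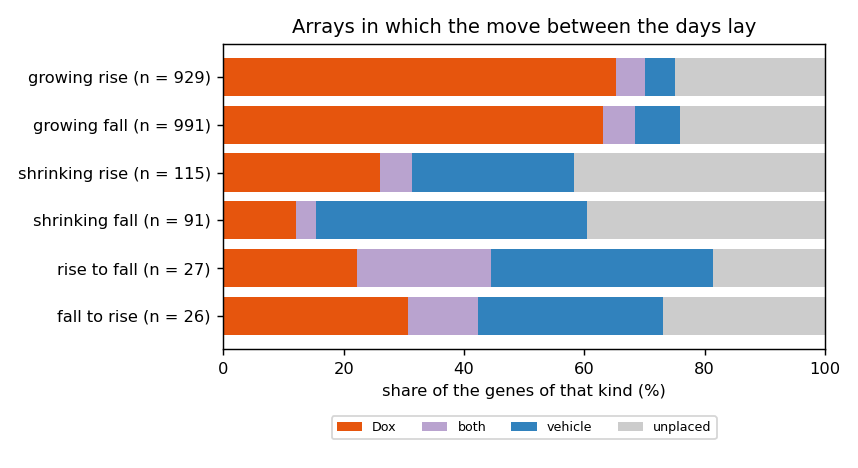
For each kind of change between the days, the bar gives the share of its genes (x axis, %) whose move lay in the Dox arrays, in both, in the vehicle arrays or could not be placed. The Dox share is 65.3% for growing rises and 63.1% for growing falls, and the vehicle share is 45.1% for shrinking falls.

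Of the gene lists examined, the largest share of calls was among the genes of mitosis, which build and power the spindle, attach chromosomes to it and carry the cell through division. Of the 68 measured genes, 61 had a called interaction, all below 0, against 6.77% of all genes. For 61 of the 61 the move lay in the Dox arrays, 60 were growing falls, and the remaining gene was NEK2, a centrosomal kinase whose effect turned over. The median interaction of the 68 was -1.68, against 0.0012 over all genes, with a median effect of -0.27 on day 1 and -2.0 on day 2, and with a median Dox move of -1.97 against a vehicle move of -0.21. Averaged over the 68 genes, the difference from the vehicle day 1 mean was -2.03 to -2.0 log2 units on the Dox day 2 arrays, -0.26 to -0.23 on the Dox day 1 arrays and -0.24 to -0.17 on the vehicle day 2 arrays. The 4 Dox day 2 arrays thus stood apart from the other 12, and the ranges of the Dox day 1 and vehicle day 2 arrays overlapped.

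KIF2C, a kinesin that depolymerizes microtubules at the centromere, read 8.88, 9.01, 9.06 and 8.92 in vehicle day 1, 8.63, 8.56, 8.86 and 8.73 in Dox day 1, 8.95, 8.88, 8.98 and 9.04 in vehicle day 2 and 6.35, 6.36, 6.34 and 6.66 in Dox day 2 (log2 levels). All Dox arrays were below all vehicle arrays of the same day, by a narrow margin on day 1 and a wide one on day 2. KIF2C was 1.21-fold lower with Dox on day 1 (adjusted p = 0.022) and 5.80-fold lower on day 2 (adjusted p = 9.1e-14), with an interaction of -2.26 (SE 0.114, adjusted p = 4.3e-10) and a vehicle move of -0.0039 (adjusted p = 0.99). For CENPA, the histone H3 variant that marks centromeres, the 4 values were 9.85 to 9.97 in vehicle day 1, 9.49 to 9.74 in Dox day 1, 9.65 to 9.93 in vehicle day 2 and 7.22 to 7.40 in Dox day 2. CENPA was 1.23-fold lower on day 1 and 5.44-fold lower on day 2 (adjusted p = 0.0056 and 4.4e-14, interaction -2.14), and its second probe above background gave -1.35 (adjusted p = 3.3e-07).

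KIF4A, a chromosome-bound kinesin that also organizes the spindle midzone, showed no effect that passed on day 1. Its values were 7.92 to 8.17 in vehicle day 1, 7.93 to 8.16 in Dox day 1, 7.62 to 7.94 in vehicle day 2 and 6.35, 5.72, 5.36 and 5.66 in Dox day 2, where 3 of the 4 arrays were above background. Its effect was 0.06 on day 1 (adjusted p = 0.87) and -2.03 on day 2 (adjusted p = 4.2e-09), with an interaction of -2.09 (SE 0.208). The same course, with no call on day 1 and a fall on day 2, was seen for ASPM, a spindle pole protein needed for even division (interaction -2.20, 5.08-fold lower on day 2), CEP55, which acts in the final cut between daughter cells (-2.18, 4.98-fold), HMMR, a spindle-associated hyaluronan receptor (-2.17, 5.10-fold), TTK, a kinase of the spindle checkpoint (-2.14, 5.04-fold), and RACGAP1, a GTPase activator at the cleavage furrow (-2.08, 4.39-fold). TROAP, a spindle-associated protein outside the list (-2.23), and CDC25C, the phosphatase that activates CDK1 (-2.21), were called lower on both days, with adjusted p of 0.014 and 0.038 on day 1.

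The mitotic kinases and cyclins moved alike at smaller sizes. The interaction was -1.84 for AURKB and -1.76 for AURKA, kinases of chromosome alignment and of the spindle poles, -1.33 for PLK1, -1.45 for CDK1, which drives entry into mitosis, -1.87 and -1.29 for its cyclins CCNB2 and CCNB1, and -1.65 for FOXM1, a transcription factor of the G2 phase. The 7 measured genes that did not pass the interaction test were MKI67 (-0.54, adjusted p = 0.14), MAD2L1 (-0.38), BUB3 (-0.29), SPC25 (-0.16), SMC4 (0.01), NCAPH (0.22) and CKS2 (0.28, adjusted p = 0.12). MKI67, the source of the proliferation marker Ki-67, was above background on 10 of the 16 arrays and on none of the Dox day 2 arrays.

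Many promoters of these genes carry the letters of elements described below. The gene lists were chosen with earlier results of these data known, so the shares of letters describe the lists and are no independent test. The following are shown because they hold such letters, and not every gene of the mitosis and replication lists does. The windows are RefSeq promoters of GRCh38.p14, from 250 bases before to 50 bases after the start of the gene, written 5′ to 3′ on the strand of the gene. In the promoters of KIF4A (chrX:70289854-70290153, plus strand) and CENPA (chr2:26785806-26786105, plus strand) the capitals mark the cell cycle genes homology region (CHR, searched as TTTGAA or TTCGAA on both strands), to which complexes that govern mitotic genes are known to bind, and the CCAAT box. In the promoters of MCM3 (chr6:52284693-52284992, minus strand) and PCNA (chr20:5126573-5126872, minus strand) they mark E2F letters (TTTGGCGC, TTTCGCGC, TTTCCCGC or TTTGCCGC on either strand), the elements of the E2F factors of S phase entry.
KIF4A: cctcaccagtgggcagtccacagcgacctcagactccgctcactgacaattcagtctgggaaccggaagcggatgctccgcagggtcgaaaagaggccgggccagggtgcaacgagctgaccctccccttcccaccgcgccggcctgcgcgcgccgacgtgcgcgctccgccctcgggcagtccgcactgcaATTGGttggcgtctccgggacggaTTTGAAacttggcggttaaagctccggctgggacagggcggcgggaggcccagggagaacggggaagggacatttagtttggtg
CENPA: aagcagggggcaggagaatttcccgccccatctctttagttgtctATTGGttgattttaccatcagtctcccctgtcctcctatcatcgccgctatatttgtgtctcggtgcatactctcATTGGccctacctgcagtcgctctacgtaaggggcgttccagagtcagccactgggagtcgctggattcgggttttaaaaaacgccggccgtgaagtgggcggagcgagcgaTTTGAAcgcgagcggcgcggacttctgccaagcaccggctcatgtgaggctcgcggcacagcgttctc
MCM3: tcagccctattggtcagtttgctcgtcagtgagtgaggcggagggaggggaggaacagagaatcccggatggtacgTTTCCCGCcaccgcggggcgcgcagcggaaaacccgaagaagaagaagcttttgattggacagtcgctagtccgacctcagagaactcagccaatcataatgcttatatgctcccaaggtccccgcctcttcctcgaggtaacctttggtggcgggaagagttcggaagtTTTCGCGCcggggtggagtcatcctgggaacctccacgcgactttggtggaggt
PCNA: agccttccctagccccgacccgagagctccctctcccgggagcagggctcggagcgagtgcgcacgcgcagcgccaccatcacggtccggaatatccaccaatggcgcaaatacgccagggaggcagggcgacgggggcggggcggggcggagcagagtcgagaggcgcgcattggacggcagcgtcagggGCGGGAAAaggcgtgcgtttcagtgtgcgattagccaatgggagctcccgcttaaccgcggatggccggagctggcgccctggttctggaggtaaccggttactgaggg
The CHR letters begin 34 bases before the start of KIF4A and 18 before that of CENPA, and the E2F letters begin 174 and 4 bases before the start of MCM3 and 59 before that of PCNA. The CENPA window also holds E2F letters, at -232 from its start, that are not marked. KIF2C has neither CHR letters nor a CCAAT box in its promoter, and CDC45 has no E2F letters. The shares that follow count genes, and a gene with several promoters counts where any of them holds the letters. Of the mitosis list, 56 genes have a promoter in the table, and 44 of them (78.6%) hold CHR letters and 44 (78.6%) a CCAAT box, against 19.5% and 39.7% of all 27305 genes with a promoter. E2F letters are in 5 of these 56 genes (8.93%) and in 20 of 34 genes of the replication list (58.8%), against 3.99% of all, and CHR letters are in 1 of those 34 (2.94%). Among the growing falls with a promoter (815 of 991), 24.8% hold CHR letters and 11.4% E2F letters, and among the growing rises (759 of 929) 11.5% and 4.87%. The Runx letters (TGTGGT or TGCGGT on both strands) are in 24.8% of the growing rises, 24.4% of the growing falls and 22.9% of all these genes. These matches describe letters in a window of 300 bases and not binding.

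A majority of the genes of DNA replication were growing falls as well. Of 40 measured, 29 had a called interaction, against 6.77% of all genes below 0, and these were all below 0, all growing falls and all in the Dox arrays, with a median interaction of -0.87 (effects of -0.50 on day 1 and -1.37 on day 2). The difference of the list mean from vehicle day 1 was -0.49 to -0.43 on the Dox day 1 arrays, -0.26 to -0.22 on the vehicle day 2 arrays and -1.49 to -1.47 on the Dox day 2 arrays. CDC45, a subunit of the replicative helicase, read 10.94 to 11.09 in vehicle day 1, 10.12 to 10.28 in Dox day 1, 10.72 to 10.78 in vehicle day 2 and 8.32 to 8.42 in Dox day 2. The 4 groups did not overlap. CDC45 moved by -1.83 in the Dox arrays and by -0.26 in the vehicle arrays (adjusted p = 2.2e-13 and 0.0039), with an interaction of -1.57.

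The helicase ring genes MCM2 to MCM7 had interactions of -1.41, -0.90, -0.90, -1.23, -0.70 and -1.12, in numerical order, and PCNA, the sliding clamp, had -0.84. GINS4, another helicase subunit, was not called on day 1 (-0.14, adjusted p = 0.68), where 1 of its 4 Dox arrays lay at 8.0 and the others at 7.16 to 7.31, and its interaction was -1.57. Of all 16923 genes 991 were growing falls, 625 of them in the Dox arrays. Of 24 measured genes of DNA repair and checkpoints 18 were growing falls in the Dox arrays. Among them were EXO1, an exonuclease (-1.76, 1.74-fold lower on day 1 and 5.87-fold on day 2), BRCA1 (-1.43) and CHEK1 (-0.88). Another EXO1 probe, above background on 6 arrays, had an interaction of -0.04 (adjusted p = 0.93), so the 2 probes do not give the same result. Of 21 measured genes of nucleotide synthesis 11 were growing falls, against 991 of all 16923 genes. TYMS, which makes thymidylate, fell 3.53-fold and TK1, thymidine kinase, fell 3.27-fold between the days in the Dox arrays (interactions -1.57 and -1.53).

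Regulators of the G1 phase did not move in 1 direction. Of 25 measured genes 11 had a called interaction, against 13% of all genes, 7 below 0 and 4 above it. CKS1B, a cofactor of cyclin-dependent kinases, had a growing fall of 1.44-fold on day 1 and 4.65-fold on day 2 (interaction -1.69), and E2F7, a repressor of the E2F family, had one of 1.72-fold and 4.76-fold (interaction -1.47), with 2 of the 4 Dox day 2 arrays above background. E2F2, CDK2 and SKP2, which act at entry into S phase, had interactions of -1.03, -0.77 and -0.52 in the Dox arrays. The cyclins CCND2 (0.89, Dox arrays, not above background on the 4 arrays of any group) and CCND3 (0.40, vehicle arrays) were growing rises, and CCNE1, the cyclin of the G1/S transition, was a shrinking fall in the vehicle arrays: its Dox effect went from -0.82 to -0.16 as the vehicle arrays moved by -0.74 and the Dox arrays by -0.09.

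The histone list went both ways. Of 24 measured genes 15 had a called interaction, against 13% of all genes, with 9 growing rises and 6 growing falls. H4C8, a gene of histone H4, read 7.24 to 7.49 in vehicle day 1, 7.67 to 7.96 in Dox day 1, 6.65 to 6.87 in vehicle day 2 and 9.16 to 9.46 in Dox day 2. Its 4 groups did not overlap, and its rise went from 1.39-fold to 5.74-fold (interaction 2.05, adjusted p = 1.5e-09). H2BC4 (1.85), H2BC5 (1.24), H2AC18 (1.23) and H2AC6 (1.88) rose as well, H2AC6 with a Dox move of 0.87 and a vehicle move of -1.01. The falls were HMGB2 (-1.83) and HMGB3, chromatin proteins that bend DNA, the nucleosome-binding HMGN2, the variants H2AX (-1.0) and H2AZ1, and H4C3 (-0.74). Histone genes are nearly alike in sequence, and whether each probe reads only its own gene was not tested.

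**Figure D3:**
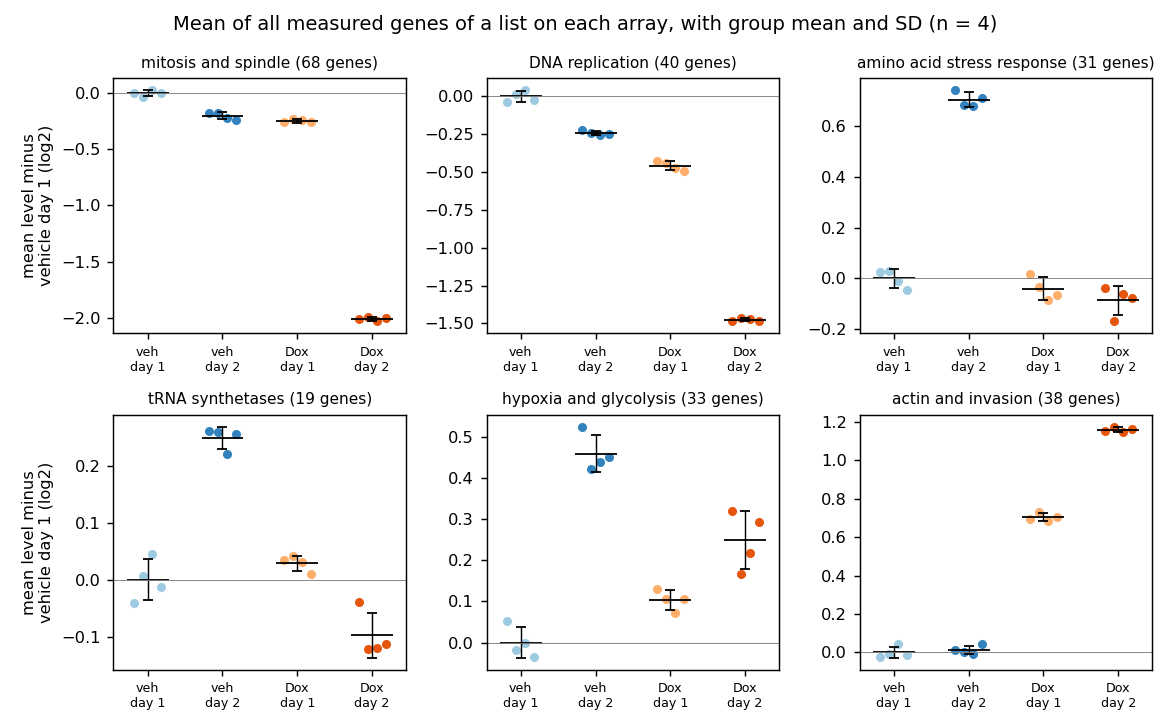
For 6 gene lists, the mean log2 level of all measured genes of the list on each array (points) minus its mean in vehicle day 1, with the group mean and SD (n = 4 arrays). Mitosis and DNA replication are lowest in Dox day 2, at -2.01 and -1.48, the amino acid stress response is highest in vehicle day 2, at 0.70, and the actin list is highest in Dox day 2, at 1.16.

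The growing rises included genes of secreted products, of enzymes that conjugate glutathione and of the actin cytoskeleton. PIP, the prolactin-induced secretory protein of glands, read 6.63 to 6.78 in vehicle day 1, 9.96 to 10.04 in Dox day 1, 6.12, 6.50, 6.55 and 6.58 in vehicle day 2 and 12.63 to 12.72 in Dox day 2. It was 9.61-fold higher with Dox on day 1 and 75.5-fold higher on day 2 (interaction 2.97, SE 0.115, adjusted p = 6.5e-11), by a Dox move of 6.41-fold and a vehicle move of 1.23-fold downwards (adjusted p = 0.027). Of 28 measured glandular products 6 had a called interaction, against 6.26% of all genes above 0, and all 6 were growing rises. SCGB1C1, a secretoglobin, read 4.35 to 4.97 in the 3 other groups, below background on each array, and 8.66 to 8.96 in Dox day 2, so its Dox move was at least 10.6-fold. Its fitted interaction of 3.96 takes the signals at background as levels and is no measured size. LCN2, a siderophore-binding lipocalin, was above background on 2 of 4 arrays in Dox day 1 (5.27 to 5.61) and on 4 in Dox day 2 (7.94 to 8.06), and its Dox move was 2.55.

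The genes that follow were above background on no vehicle array, so their interactions take signals at background as levels. S100A4, a calcium-binding protein linked to cell motility, read 4.58 to 5.09 in the vehicle arrays, on none of which it was above background, 5.75, 5.88, 5.86 and 6.21 in Dox day 1 and 9.08, 9.22, 9.32 and 8.94 in Dox day 2. The 3 levels are apart from each other, and between the days the Dox arrays rose 9.29-fold (adjusted p = 7.0e-13), with an interaction of 3.08 and of 3.38 for its second probe. CST7, a cystatin that inhibits cysteine proteases, likewise rose 10.2-fold between the days in the Dox arrays (interaction 3.39), and HTRA1, a secreted serine protease, rose 4.55-fold (2.31). CYP2E1, an enzyme of drug and ethanol metabolism, rose 6.93-fold (2.94), FOLR1, the folate receptor, 5.91-fold (2.51), GLDN, the cell surface protein gliomedin, 5.76-fold (2.69), and NPTX1, a neuronal pentraxin, 4.83-fold (2.40). CETP, a lipid transfer protein, was below background in the other 3 groups and rose at least 5.64-fold. In these genes the vehicle moves ran from -0.16 to 0.14 and none was called. Such moves compare signals at background on both days, so they cannot show whether the vehicle cultures changed. Each of these genes passed the filter on background through Dox arrays alone.

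Of 40 measured proteases and inhibitors 10 had a called interaction, against 13% of all genes, and the move lay in the Dox arrays for all 10 (for 7 of 9 with the array medians set equal). The 8 growing rises included CTSD, a lysosomal aspartic protease (0.82), TIMP1, an inhibitor of matrix metalloproteases (0.83, not above background on the 4 arrays of any group), and PRSS8, an epithelial serine protease (0.69). SERPINE2 and TFPI, which inhibit proteases of coagulation, were growing falls (-0.72 and -0.71). Of 38 measured genes of the actin cytoskeleton and invasion 14 had a called interaction, against 13% of all genes, and these were growing rises, 8 of them in the Dox arrays, with a list median of 0.20. With the array medians set equal 12 were called, 4 of them in the Dox arrays, with a list median of 0.10, and with the authors' values 5 lay in the Dox arrays. SH3PXD2A, a scaffold of invadopodia, read 7.76 to 8.25 in vehicle day 1, 9.23 to 9.71 in Dox day 1, 7.57 to 7.82 in vehicle day 2 and 10.39 to 10.65 in Dox day 2. The vehicle arrays of the 2 days overlapped and the Dox arrays did not, and its Dox effect went from 1.42 to 2.86 (interaction 1.44, adjusted p = 5.4e-06). The Dox move of SH3PXD2A was 1.07, and its vehicle move of -0.37 was called too (adjusted p = 0.04). MAP1B, a microtubule-binding protein, was above background on no vehicle array, on 1 of 4 Dox day 1 arrays (5.08 to 5.50) and on 4 Dox day 2 arrays (6.90 to 7.66), so its Dox move of 1.98 and its interaction of 1.75 rest on signals near background. SDC2, a heparan sulfate proteoglycan, rose by 1.14 between the days in the Dox arrays (interaction 1.27). NRP1, a receptor for semaphorins and VEGF, moved up in the Dox arrays by 0.81 and down in the vehicle arrays by 0.57 (interaction 1.37).

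Of 27 measured genes of glutathione conjugation and redox enzymes 13 had a called interaction, against 13% of all genes, with 10 growing rises and 3 growing falls, and 11 of the 13 lay in the Dox arrays. GSTA1, a glutathione transferase, read 6.33 to 6.70 in vehicle day 1, 9.66 to 9.72 in Dox day 1, 6.0 to 6.36 in vehicle day 2 and 11.30 to 11.50 in Dox day 2. It was 8.92-fold higher on day 1 and 35.8-fold higher on day 2 (interaction 2.00, adjusted p = 5.1e-09), and the vehicle arrays of the 2 days overlapped by a single value. GSTA2 (1.5), GSTM3 (1.09), GSTM2 (0.81), GSTO2 (0.77), GSTT1 (0.75) and GSTM1 (0.73) went the same way. GSTA and GSTM genes are close paralogs, so a probe may read more than its own gene. The falls were TXNRD1, thioredoxin reductase (-0.61), NQO1, a quinone reductase (-0.47), and GSTO1 (-0.45).

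Of 37 measured interferon-responsive genes 10 had a called interaction, against 13% of all genes, 8 of them growing rises, and the list median was -0.0090. IRF9, a subunit of the complex that switches on interferon genes, showed no day 1 effect that passed (-0.07, adjusted p = 0.63) and was 2.10-fold higher on day 2 (interaction 1.14, adjusted p = 9.0e-07). IFI44 had the same interaction, 1.14, from levels near background: 4.88 to 5.61 in the 3 other groups and 6.46 to 6.88 in Dox day 2. IRF7, ISG15, IFIT1 and IFI6 had interactions of 0.51, 0.54, 0.65 and 0.67 in the Dox arrays. SMAD3, which carries TGF-beta signals to the nucleus, read 5.56 to 6.0 in the vehicle arrays of both days, 7.27 to 7.40 in Dox day 1 and 8.27 to 8.57 in Dox day 2, with an interaction of 1.12 (adjusted p = 2.0e-05). THBS1, a matrix glycoprotein that activates latent TGF-beta, went from 4.46-fold to 13.3-fold higher, by a Dox move of 0.78 up and a vehicle move of 0.80 down, neither of which was the larger by the test of their sum.

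**Figure D4:**
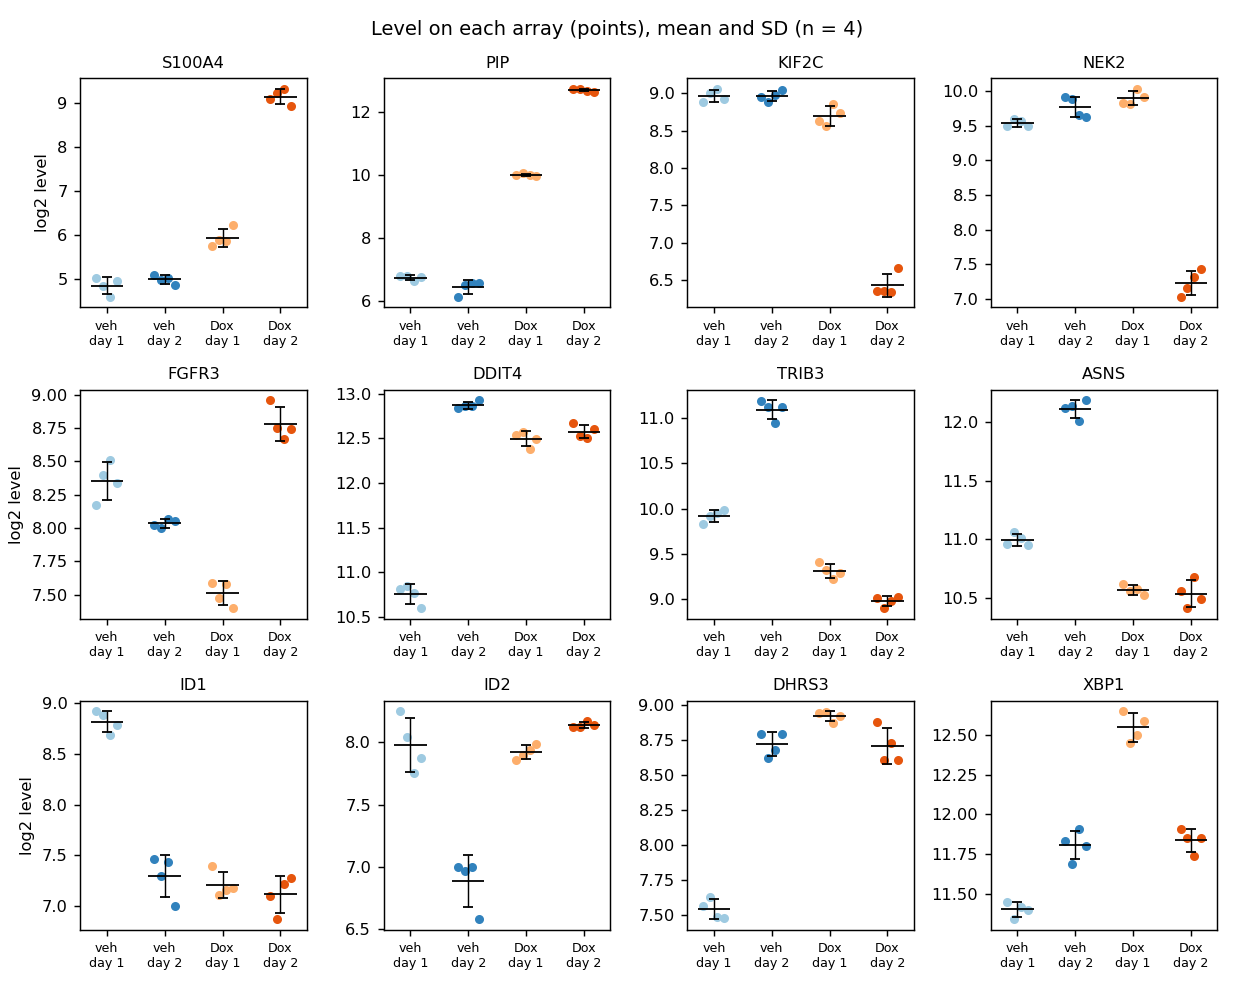
Log2 level of 12 genes on each array (points), with the mean and SD of the 4 arrays of a group (lines), in the order vehicle day 1, vehicle day 2, Dox day 1 and Dox day 2. The move was placed in the Dox arrays for S100A4, PIP, KIF2C, NEK2, FGFR3 and XBP1, and in the vehicle arrays for DDIT4, TRIB3, ASNS, ID1, ID2 and DHRS3. Smaller moves were also called in the vehicle arrays for PIP, FGFR3 and XBP1 and in the Dox arrays for TRIB3 and DHRS3.

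A different picture came from genes of the amino acid stress response, whose interaction lay mostly in the vehicle arrays. When amino acids run short or the endoplasmic reticulum is stressed, cells make more of the transcription factor ATF4, which switches on genes of amino acid uptake and synthesis, tRNA charging and stress signaling. Of 31 measured genes, 25 had a called interaction, and all 25 lay below 0, against 6.77% of all genes. The move lay in the vehicle arrays for 16, in both for 5 and in the Dox arrays for 1, SLC1A5, and could not be placed for 3. The median vehicle move of the 31 was 0.65 and the median Dox move -0.07 (median interaction -0.79), and over all genes these medians were 0.0019 and 0.0023. The difference of the list mean from vehicle day 1 was 0.68 to 0.74 on the 4 vehicle day 2 arrays, -0.09 to 0.02 on the Dox day 1 arrays and -0.17 to -0.04 on the Dox day 2 arrays. With the array medians set equal, 12 of the genes lay in the vehicle arrays, 3 in the Dox arrays and 6 in both.

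ASNS, asparagine synthetase, read 10.95 to 11.06 in vehicle day 1, 10.52 to 10.62 in Dox day 1, 12.01 to 12.19 in vehicle day 2 and 10.41 to 10.68 in Dox day 2. The vehicle arrays of the 2 days were apart by about 1 log2 unit and the Dox arrays overlapped. The vehicle move was 1.12 (adjusted p = 9.3e-09) and the Dox move -0.03 (adjusted p = 0.83), which took the Dox effect from -0.43 to -1.58. TRIB3, a pseudokinase induced by ATF4, read 9.83 to 9.98, 9.22 to 9.41, 10.94 to 11.19 and 8.90 to 9.02 in the same order, with a vehicle move of 1.17 and a Dox move of -0.33 (interaction -1.5). SLC7A11, the cystine transporter, moved by 1.20 in the vehicle arrays and by -0.07 in the Dox arrays, and CTH, which makes cysteine, by 1.35 and 0.36. DDIT3, a stress-induced transcription factor, moved by 0.75 in the vehicle arrays, and ATF4 itself by 0.37 (interactions -0.95 and -0.45). SLC1A5, a glutamine transporter, moved by -0.70 in the Dox arrays and 0.35 in the vehicle arrays.

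DDIT4, an inhibitor of mTORC1 signaling that responds to stress, had the largest interaction of the genes placed in the vehicle arrays. It read 10.81, 10.85, 10.77 and 10.60 in vehicle day 1, 12.54, 12.57, 12.38 and 12.49 in Dox day 1, 12.84, 12.86, 12.86 and 12.93 in vehicle day 2 and 12.67, 12.53, 12.50 and 12.60 in Dox day 2. The vehicle day 1 arrays stood alone below the other 3 groups. DDIT4 was therefore 3.34-fold higher with Dox on day 1 and 1.23-fold lower on day 2, while the Dox move was 0.08 (adjusted p = 0.52) and the vehicle move 2.11 (adjusted p = 4.9e-12, 4.33-fold). NIBAN1, a stress-induced regulator of translation, turned from 1.31-fold higher to 2.51-fold lower, with a vehicle move of 1.30 and a Dox move of -0.42. GDF15, a stress-induced secreted cytokine, was 2.16-fold lower on day 1 and 7.80-fold lower on day 2, as the vehicle arrays went from 10.96 to 11.38 up to 12.90 to 13.01 and the Dox arrays stayed between 9.68 and 10.32. BEST1, a chloride channel, was above background only in vehicle day 2 (6.64 to 7.03), a vehicle move of at least 2.53-fold.

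The tRNA synthetases, which load tRNAs with their amino acids, followed the same pattern at smaller size. Of 19 measured cytosolic enzymes 12 had a called interaction, all below 0, against 6.77% of all genes. Of the 12, 6 lay in the vehicle arrays, 2 in both and 0 in the Dox arrays, and 4 were unplaced. With the array medians set equal, 3 of the 12 lay in the vehicle arrays, 2 in the Dox arrays and 3 in both. GARS1, the glycine enzyme, read 10.75 to 10.92 in vehicle day 1, 10.68 to 10.88 in Dox day 1, 11.57 to 11.71 in vehicle day 2 and 10.69 to 10.84 in Dox day 2. Only the vehicle day 2 arrays were apart from the rest, by a vehicle move of 0.78 (adjusted p = 7.6e-07) against a Dox move of -0.07. MARS1 and CARS1, the methionine and cysteine enzymes, had vehicle moves of 0.61 and 0.56, and with equal array medians the move of MARS1 counted as lying in both. The promoters of CARS1 (chr11:3057374-3057673, minus strand), MARS1 (chr12:57487818-57488117, plus strand) and CEBPG (chr19:33373863-33374162, plus strand), a partner factor of ATF4, are shown because they hold the element of ATF4 and its partners, the C/EBP-ATF response element, searched as TGATGCAA on both strands and marked in capitals. They are RefSeq promoters of GRCh38.p14 as above.
CARS1: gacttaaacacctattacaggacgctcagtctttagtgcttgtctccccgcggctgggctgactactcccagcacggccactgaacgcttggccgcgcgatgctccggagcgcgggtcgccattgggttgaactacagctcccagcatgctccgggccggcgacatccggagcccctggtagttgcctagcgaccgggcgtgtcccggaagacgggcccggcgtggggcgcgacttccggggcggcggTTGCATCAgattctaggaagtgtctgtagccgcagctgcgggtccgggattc
MARS1: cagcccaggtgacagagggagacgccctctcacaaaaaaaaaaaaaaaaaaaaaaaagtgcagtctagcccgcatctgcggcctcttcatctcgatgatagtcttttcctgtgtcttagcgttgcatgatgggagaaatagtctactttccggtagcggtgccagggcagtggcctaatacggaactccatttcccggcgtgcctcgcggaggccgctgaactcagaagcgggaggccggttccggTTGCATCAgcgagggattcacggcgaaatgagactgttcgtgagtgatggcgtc
CEBPG: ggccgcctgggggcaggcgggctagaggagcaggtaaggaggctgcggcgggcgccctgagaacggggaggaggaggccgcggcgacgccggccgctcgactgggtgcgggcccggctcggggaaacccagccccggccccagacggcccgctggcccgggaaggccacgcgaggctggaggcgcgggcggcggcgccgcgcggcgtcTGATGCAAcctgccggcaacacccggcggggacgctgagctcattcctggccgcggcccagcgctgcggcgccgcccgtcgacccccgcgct
The element begins 2, 4 and 42 bases before the start of CARS1, MARS1 and CEBPG. Counted by gene as above, it is in 6 of the 16 tRNA synthetase genes with a promoter in the table (37.5%), in 4 of 26 genes of the amino acid stress list (15.4%), in 5 of 98 genes with an upward vehicle move and an interaction placed there (5.1%) and in 1.08% of all genes with a promoter. It is in 2.21% of the growing falls and 0.922% of the growing rises. This motif was chosen after the moves were known.

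**Figure D5:**
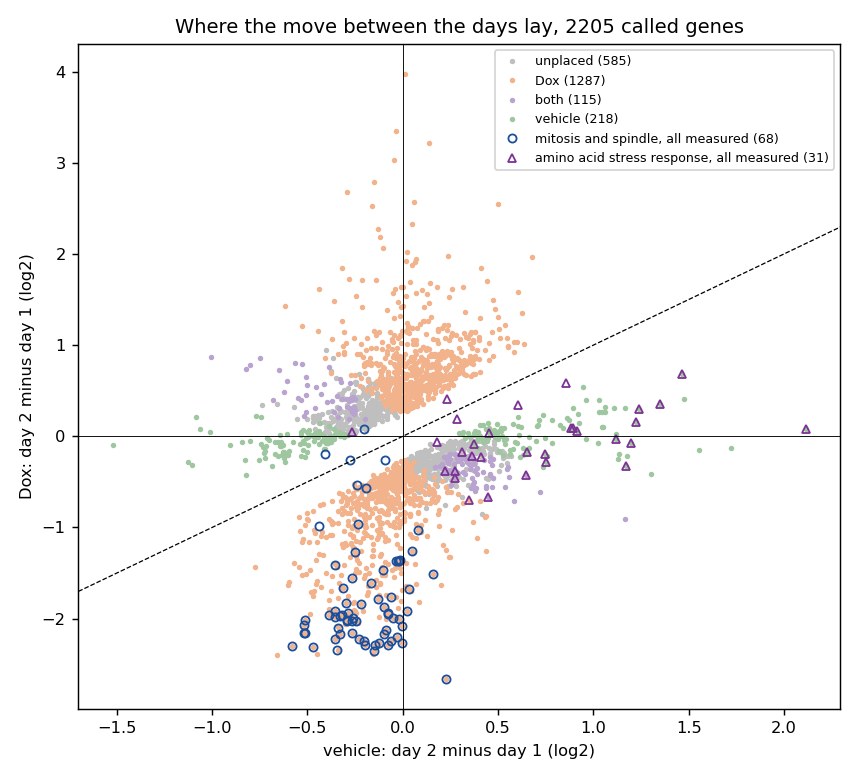
Each dot is a gene with a called interaction, with its vehicle move (x axis) against its Dox move (y axis) in log2 units, colored by the arrays in which the move lay, and the dashed line marks equal moves. Open circles are all 68 measured mitosis genes, called or not, most of them near -2 on the Dox axis, and triangles are all 31 measured genes of the amino acid stress response, most of them spread to the right along the vehicle axis up to 2.11.

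Genes induced by low oxygen and genes of glycolysis also moved in the vehicle arrays. Of 33 measured genes 11 had a called interaction, against 6.77% of all genes below 0, and all 11 lay below 0, 8 of them in the vehicle arrays. LOX, an enzyme that crosslinks collagen, read 5.14 to 5.67 in vehicle day 1, with 1 of 4 arrays above background, 6.32 to 6.48 in vehicle day 2, and was below background in the 8 Dox arrays. Its vehicle move was 2.04-fold (adjusted p = 3.9e-06). NDRG1, a gene of growth arrest and low oxygen, moved by 1.03 in the vehicle arrays and by 0.40 in the Dox arrays, so that its Dox effect went from 0.20, which was not called, to -0.43. VEGFA, the angiogenic growth factor, was 2.18 higher with Dox on day 1 and 1.5 higher on day 2: its vehicle arrays rose from 6.57 to 6.82 up to 7.52 to 7.87, and its Dox arrays lay at 8.88 to 9.01 and 9.03 to 9.37. PFKFB4, ENO2, ANKRD37 and KDM3A had vehicle moves of 1.11, 1.04, 1.06 and 0.78. The Dox move of HK1, a hexokinase, was -0.48 and its vehicle move 0.11.

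Lipid synthesis genes were divided between the arrays. Of 25 measured genes of cholesterol and fatty acid synthesis 14 had a called interaction, against 13% of all genes, 12 of them below 0. The move lay in the Dox arrays for 4, and for 8 with the array medians set equal. INSIG1, which holds back the sterol-sensing machinery, moved by -0.61 in the Dox arrays and by 0.72 in the vehicle arrays, and its fall went from 1.49-fold to 3.74-fold (interaction -1.33). Its relative INSIG2 turned from 1.25-fold higher to 1.58-fold lower with a vehicle move of 0.96 and a Dox move of -0.02. SREBF1, the transcription factor of this pathway, turned over as well, from 0.26 to -0.52, with opposite moves of -0.31 and 0.47, and the fatty acid desaturases SCD and FADS2 were growing falls, SCD in the vehicle arrays (interaction -0.67) and FADS2 in the Dox arrays (-0.85). The placement of SCD was lost with the array medians set equal, with the authors' values and with the replicate numbers as a block.

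Downward vehicle moves included the ID genes, inhibitors of helix-loop-helix transcription factors and targets of BMP signaling. ID1 read 8.69 to 8.92 in vehicle day 1, 7.11 to 7.40 in Dox day 1, 7.0 to 7.46 in vehicle day 2 and 6.87 to 7.28 in Dox day 2, so that 3 of the 4 groups overlapped. Its vehicle move was -1.52 (2.87-fold) and its Dox effect shrank from -1.61 to -0.18. HEY1, a Notch and BMP target, had Dox effects of -0.77 on day 1 and -0.01 on day 2 and a vehicle move of -0.80. It was above background on 4 vehicle day 1, 2 Dox day 1, 1 vehicle day 2 and 1 Dox day 2 arrays. Its day 2 effect thus compares signals near background. ID3 had Dox effects of -0.56 and 0.23, the second not called, and a vehicle move of -1.10. ID3 counted as turning over without background correction and with only probes above background. The same held without the third vehicle day 1 or the first vehicle day 2 array. For ID2 the vehicle move was of similar size, -1.09, but there was no called effect on day 1 (-0.05, adjusted p = 0.82), so its effect counts as a growing rise of 2.37-fold on day 2. The ID2 values were 7.75 to 8.25, 7.86 to 7.99, 6.58 to 7.0 and 8.12 to 8.17 in the order vehicle day 1, Dox day 1, vehicle day 2 and Dox day 2. Of the 21 measured genes of this list 8 had a called interaction, against 13% of all genes, 4 of them in the vehicle arrays. DUSP2, a phosphatase of MAP kinases, was a growing rise with a vehicle move of -1.01 and a Dox move of 0.04 that was not called (adjusted p = 0.85).

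Among the shrinking rises were genes whose vehicle arrays rose and genes whose Dox arrays fell. DHRS3, a retinal reductase, read 7.48 to 7.63 in vehicle day 1, 8.87 to 8.95 in Dox day 1, 8.62 to 8.79 in vehicle day 2 and 8.61 to 8.88 in Dox day 2. It was 2.60-fold higher on day 1 and showed no called effect on day 2 (-0.01, adjusted p = 0.94), through a vehicle move of 1.18. MKNK2, a kinase of the translation factor eIF4E, went from 2.41-fold to 1.26-fold higher with a vehicle move of 1.04 and a Dox move of 0.11 that was not called. COL16A1, a fibril-associated collagen, was below background in vehicle day 1 and had a vehicle move of at least 1.66-fold.

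XBP1, a transcription factor of secretory cells and the unfolded protein response, fell between the days in the Dox arrays. It read 11.34 to 11.45 in vehicle day 1, 12.45 to 12.65 in Dox day 1, 11.69 to 11.91 in vehicle day 2 and 11.74 to 11.91 in Dox day 2. The day 2 groups overlapped whereas those of day 1 did not, and the rise went from 2.21-fold to an effect of 0.03 (adjusted p = 0.81) by a Dox move of -0.71 and a vehicle move of 0.41. With the authors' normalized values, and without the first Dox day 1 or the second vehicle day 2 array, its move counted as lying in both. SIPA1L2, a GTPase activator of Rap proteins, went from 3.19-fold to 1.55-fold higher by a Dox move of -0.97 with a vehicle move of 0.07. UNC5A, a netrin receptor, and CBLB, a ubiquitin ligase, shrank from 1.98-fold and 2.41-fold to 1.08-fold, not called, and 1.29-fold, with opposite moves in both groups of arrays, and with equal array medians the move of UNC5A lay in the Dox arrays.

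Shrinking falls were fewer than shrinking rises, with a similar median size of the interaction (0.45 against 0.47). PCDH7, a protocadherin of cell adhesion, read 8.10 to 8.31 in vehicle day 1, 6.54 to 6.91 in Dox day 1, 7.22 to 7.40 in vehicle day 2 and 6.25 to 7.06 in Dox day 2. The Dox arrays overlapped between the days and the vehicle arrays did not, so that the fall went from 2.68-fold to 1.52-fold by a vehicle move of -0.91. LINC00161, a noncoding RNA, was below background in all Dox arrays, and its fall went from at least 3.04-fold to at least 1.67-fold with a vehicle move of -0.84. PMEPA1, a target and inhibitor of TGF-beta signaling, went from 3.03-fold to 1.86-fold lower by a Dox move of 0.51. This placement was lost with the authors' normalized values, with the array medians set equal, with the replicate numbers as a block and when any of 10 single arrays was left out. NOL3, an inhibitor of apoptosis, went from 1.53-fold lower to no called effect (0.17, adjusted p = 0.11) with opposite moves of 0.44 and -0.35, a placement that was lost with equal array medians.

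Among the genes that turned over, NEK2 read 9.49 to 9.60 in vehicle day 1, 9.81 to 10.03 in Dox day 1, 9.63 to 9.91 in vehicle day 2 and 7.03 to 7.43 in Dox day 2. It was 1.27-fold higher on day 1 and 5.80-fold lower on day 2, by a Dox move of -2.66 (interaction -2.88, SE 0.124), the largest interaction below 0. ACBD7, an acyl-CoA binding protein, and LRIG1, a membrane protein that restrains growth factor receptors, turned from 1.49-fold and 1.48-fold higher to 1.90-fold and 1.68-fold lower (interactions -1.5 and -1.32). Both were placed in the Dox arrays, with Dox moves of -1.11 and -0.89. Their smaller vehicle moves of 0.39 and 0.43 were called in the opposite direction (adjusted p = 0.0012 and 0.001).

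The turns in the other direction were led by FGFR3, a receptor of fibroblast growth factors. Its values were 8.17, 8.40, 8.51 and 8.34 in vehicle day 1, 7.59, 7.48, 7.58 and 7.40 in Dox day 1, 8.02, 8.0, 8.07 and 8.05 in vehicle day 2 and 8.96, 8.75, 8.67 and 8.74 in Dox day 2. The Dox arrays lay below all vehicle arrays on day 1 and above them all on day 2. FGFR3 was 1.79-fold lower and then 1.68-fold higher (adjusted p = 3.0e-07 and 4.1e-07, interaction 1.59). Its Dox move was 1.27, and its smaller vehicle move of -0.32 was called too (adjusted p = 0.011). Another FGFR3 probe, above background on 6 arrays, had an interaction of 0.29 that was not called (adjusted p = 0.47). PHLDA1, a pleckstrin homology protein induced by growth factors, turned from 1.62-fold lower to 1.26-fold higher in the Dox arrays, or in both with equal array medians. PITX1, a homeobox factor, and DENND5B, a Rab exchange factor, turned from 1.19-fold and 1.26-fold lower to 1.95-fold and 1.48-fold higher, with opposite moves in the Dox and the vehicle arrays whose sizes could not be told apart (0.61 and -0.61 for PITX1, 0.47 and -0.43 for DENND5B). With equal array medians the move of PITX1 lay in the vehicle arrays. The turn of YJU2, a splicing factor (interaction 1.01, adjusted p = 0.0066), rested on effects near the threshold (adjusted p = 0.045 and 0.019), and its move could not be placed. With the array medians set equal its day 1 effect was no longer called, and the turn was also lost when any of 12 single arrays was left out.

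Of the 12 measured genes of the prostate epithelium 6 had a called interaction, against 13% of all genes. SPDEF, an Ets factor of that epithelium, read 10.99 to 11.24 in vehicle day 1, 10.07 to 10.26 in Dox day 1, 11.09 to 11.19 in vehicle day 2 and 9.14 to 9.52 in Dox day 2, and its fall went from 1.87-fold to 3.55-fold in the Dox arrays. TMPRSS2, an androgen-induced serine protease, had a growing fall from 1.42-fold to 2.31-fold that lay in the vehicle arrays, which moved by 0.83 while the Dox arrays moved by 0.12 (adjusted p = 0.26). KLK3, which encodes PSA, was a growing rise, with a Dox move of 0.73 and a vehicle move of 0.31. HOXB13, a homeobox factor of the prostate, had an interaction of -0.45 that could not be placed. Of 28 measured androgen receptor targets 14 had a called interaction, against 13% of all genes, 6 above 0 and 8 below, and TSC22D3, a glucocorticoid-induced leucine zipper protein, had a vehicle move of 1.48 against a Dox move of 0.41.

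Some lists stayed near or below the share of calls over all genes, and some lay above it with calls for a minority of their genes. Of 33 measured genes of the respiratory chain 1 had a called interaction (3.03%), of 23 endoplasmic reticulum chaperones 2 (8.7%) and of 38 mitochondrial ribosomal proteins 6 (15.8%), against 13% of all genes. Of 39 ribosome biogenesis genes 9 were called (23.1%), 7 of them growing falls in the Dox arrays, and with the authors' values 5 were called. FBL, NOLC1 and LYAR, proteins of the nucleolus, had interactions of -0.62, -0.56 and -0.48. Of 25 measured p53 targets 6 were called (24%), 5 of them below 0, and of 32 immediate early genes 7 (21.9%). These 3 shares lay above the 13% of all genes. Among the immediate early genes JUN stood at 0.61 and ATF3, a stress-induced factor that is also on the amino acid list, at -1.04.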

How the data were processed

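RNA from 16 cultures was hybridised to Illumina HumanRef-8 version 3 arrays. The deposited bead signals are intensities that the authors summarised in BeadStudio, with no background correction or scaling, each beside a deposited detection p-value. The authors' normalized log2 values, made by model-based background correction and quantile normalization and tested by the authors with a two-way ANOVA, were used as an alternative. Each of their columns had a median of 4.673, and their ranks followed the signals at 0.9999 or more. No column of per-sample values was left unused (0). The genome build of the probes was not given in the sources used here.

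Signals were corrected by normexp with an offset of 16 on 664 negative controls inferred from the detection p-values, quantile normalized and put on the log2 scale. A linear model with 4 group means was fitted with limma 3.58.1 in R 4.3.3, and two-sided p-values were adjusted by Benjamini-Hochberg over all 24526 probes, with a threshold of 0.05. Of these probes, 21834 had 1 gene symbol in the platform annotation and 2692 had none, and 199 of the unnamed probes had a called interaction. Each gene is represented by its probe of the highest mean. A probe with a detection p under 0.01 was called above background. Where a group had no array above background, a fold is given as "at least", against the higher of the lowest signal above background and the probe's own signal on each array, and no fold is given where both groups were below it. Steps of the model were tested on simulated data.

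A response counted as turning over where both daily effects were called in opposite directions, as growing where the day 2 effect was called and the larger, and as shrinking where the day 1 effect was called and the larger. Genes were named by size of the interaction among called genes that a whole group (4 arrays) showed above background: the first 10 growing rises and falls, 8 shrinking rises and falls, 5 turns each way, 6 vehicle moves each way and the first 2 of each gene list. Other genes named, such as further members of the lists, were chosen after their values were seen. The members and lists were chosen with earlier results of these data known. Motifs were searched in RefSeq promoters with Python 3.11.15, and figures were drawn with matplotlib 3.10.9. Nothing says whether the 4 cultures of a group were grown at separate times, so p-values measure the spread between these cultures. Alternatives were an offset of 50, no background correction, equal array medians, the authors' values, a filter on dim probes, the replicate number as a block, no moderation of the variance, the probe of the smallest p, a least interaction of 1, and leaving out each array.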

Additional observations from a re-analysis of the deposited data

Results flagged for a closer look

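The difference of the Dox effect between the days was tested as such, and it passed for 2205 genes, of which the effect grew for 1920, shrank for 206 and turned over for 53. Among the genes described above, those whose effect turned over from a rise to a fall had interactions of -2.88 (NEK2), -2.03 (DDIT4), -1.72 (NIBAN1), -1.50 (ACBD7), -1.32 (LRIG1) and -0.98 (INSIG2). Those that turned from a fall to a rise had 1.59 (FGFR3), 1.22 (PITX1), 1.03 (PHLDA1), 1.01 (YJU2) and 0.90 (DENND5B).

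In 19 of 368 sets of 4 arrays (92 genes in 4 groups), 1 array stood apart by Dixon's criterion, which chance alone gives in about 1 in 20 groups. In vehicle day 2 these were the lowest arrays of PIP (6.12, the others 6.50 to 6.58), NPTX1 (4.33, the others 4.46), ID2 (6.58, the others 6.97 to 7.0), ID3 (8.26, the others 8.62 to 8.69) and DENND5B (6.11, the others 6.19 to 6.21). The highest vehicle day 2 array stood apart for SMAD3 (6.0), CDC45 (10.78), NIBAN1 (8.26) and PITX1 (10.83). In vehicle day 1 the highest array stood apart for CEP55 (9.89), HMMR (10.29), KIF4A (8.17) and SPDEF (11.24), and the lowest for CKS1B (11.12). In Dox day 1 the lowest array stood apart for SCGB1C1 (4.62, below background) and NPTX1 (5.16), and the highest for SMAD3 (7.40) and VEGFA (9.01). In Dox day 2 it was the highest array of KIF2C (6.66, the others 6.34 to 6.36). The interactions of the named genes among these kept their direction and call without any single array.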

How the results depend on the processing

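Of the 97 genes named by rule, 92 kept their direction and call under all 23 settings run for them, and no interaction changed sign in the 2231 combinations of gene and setting. In 12 combinations the call was lost: with equal array medians for HSPA5 (0.37), MRPL27 (0.30) and NDUFA1 (0.23), with the authors' values for PCDH20 (0.87), HSPA4L (-0.52) and NDUFA1 (0.29), and for HSPA4L without moderation (-0.51) and without any of 5 arrays (-0.48 to -0.42). With equal array medians 136 genes moved in the vehicle arrays, in place of 218. That setting also changed the placement of ATF3 and SLC39A10 from the vehicle arrays to both. With the authors' values the effect shrank for 132 genes, 129 moved in the vehicle arrays and 64 in both, out of 1562 calls. Testing only probes above background, a construction with fewer tests, gave 81 genes that turned over. With an interaction of at least 1 required, 340 genes remained, with 322 that grew, 5 that shrank and 13 that turned over, and 292 moved in the Dox arrays, 20 in the vehicle arrays and 22 in both. Leaving out single arrays gave 1960 to 2154 calls, 1723 to 1862 that grew, 172 to 211 that shrank and 41 to 55 that turned over, with 1161 to 1271 in the Dox arrays, 181 to 217 in the vehicle arrays and 86 to 112 in both. Apart from the fewer samples or tests of the settings named so, the cause of these differences was not tested.

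The replicate numbers did not pair the arrays: same-numbered arrays of different groups had correlations of their deviations between -0.34 and 0.44 over 24 pairs (median 0.02), 6 of them over 0.1, and 4 of 16 arrays correlated best with their own number. With the replicate block 2095 genes were called.

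Of 261 called genes with more than 1 probe above background, the probes had the same sign for 237 and all were called for 119. Signal over background limits the 77 called genes that were above background on no array. Chips and scans are not named in the sources used here, so they could not be tested as batches.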
